A study of Mus musculus with 18 samples.

Results

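Single skipped-exon events are exons that some transcripts of a gene carry and others leave out as a whole. They were taken from RNA-seq of peritoneal macrophages of 3 genotypes, TLR4-WT, TLR4-K730R and TLR4-K810R, each mock-treated or treated with LPS at 100 ng/ml for 6 h, with 3 libraries in each of the 6 groups; the genotypes are also written WT, K730R and K810R beside values. In both mutants a lysine in the TIR domain of TLR4, the cell surface receptor for bacterial lipopolysaccharide, is replaced by arginine; the changes were made with CRISPR/Cas9 in C57BL/6 mice, so every cell of a mutant mouse carries them. The macrophages of all groups had been drawn to the peritoneum with thioglycolate, and nothing in the labels says that the 3 libraries of a group came from separate animals, so the p-values below measure the spread between these libraries. The members are all rows of the event kinds that hold a single skipped exon, 452571 of 1546228 rows over the 18 libraries, with the "on" row (exon kept) and the "off" row (exon left out) of a gene joined by the ends of the exon. They describe 22117 exon events, of which 14440 events in 6103 genes had both forms in at least 1 library.

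When a primary transcript is spliced, the spliceosome pairs the splice sites at the ends of each intron, and an exon is skipped when the site before it is joined to the site after it. SR proteins mostly promote the use of nearby exons and hnRNP proteins often oppose it. An exon whose length is a multiple of 3 can be kept or left out without a shift of the reading frame, whereas other lengths change all codons that follow. In macrophages, ligand binding to TLR4 recruits the adaptors MAL and MyD88 and IRAK kinases, and the kinase TAK1 (gene Map3k7) then activates NF-κB and MAP kinases; exon choice in several of these genes is known to alter signalling.

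The exons on which the results after LPS turn are shown first, because each lies within coding sequence and has a length that is a multiple of 3. The sequences are from GENCODE M21 transcripts (GRCm38), 5′ to 3′, with the skipped exon in capitals and 15 bases of each neighbouring exon in lower case. All were taken by the naming rule, Adgre5, Osbpl9 and Bnip2 for the size of their change and Map3k7, Numb and Lrrfip2 as called events of listed genes, and they were picked from the named events after their values were seen. Of the 69-base exon of Lrrfip2, the neighbours are those of the annotated transcript, a combination that the files do not list.
Adgre5, chr8:83730111-83730257, minus strand, exon 5 of 19: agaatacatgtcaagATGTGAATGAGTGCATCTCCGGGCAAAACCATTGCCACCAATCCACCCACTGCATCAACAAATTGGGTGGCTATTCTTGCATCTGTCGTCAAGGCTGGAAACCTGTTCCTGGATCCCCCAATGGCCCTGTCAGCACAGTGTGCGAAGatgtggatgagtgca
Map3k7, chr4:31994874-31994954, plus strand, exon 12 of 17: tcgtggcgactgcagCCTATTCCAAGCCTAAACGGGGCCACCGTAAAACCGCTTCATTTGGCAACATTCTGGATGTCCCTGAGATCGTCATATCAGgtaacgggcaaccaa
Numb, chr12:83797197-83797343, minus strand, exon 9 of 10: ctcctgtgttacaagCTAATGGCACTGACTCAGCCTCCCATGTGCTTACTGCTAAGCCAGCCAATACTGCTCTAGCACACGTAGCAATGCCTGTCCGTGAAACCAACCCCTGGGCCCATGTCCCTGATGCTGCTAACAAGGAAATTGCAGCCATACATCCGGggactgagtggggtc
Lrrfip2, chr9:111170256-111170324, plus strand, exon 5 of 16: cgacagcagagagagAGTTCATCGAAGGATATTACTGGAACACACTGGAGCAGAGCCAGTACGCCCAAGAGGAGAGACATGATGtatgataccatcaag
Lrrfip2, chr9:111167200-111167244, plus strand, exon 5 of 15: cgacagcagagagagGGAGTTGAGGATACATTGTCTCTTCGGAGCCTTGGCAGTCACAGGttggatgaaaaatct
Bnip2, chr9:70004306-70004341, plus strand, exon 10 of 11: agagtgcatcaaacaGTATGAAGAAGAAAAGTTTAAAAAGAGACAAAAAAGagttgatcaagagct
Osbpl9, chr4:109091661-109091699, minus strand, exon 6 of 21: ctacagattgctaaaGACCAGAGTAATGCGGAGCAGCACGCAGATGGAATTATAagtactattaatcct
The Bnip2 exon has the lowest GC content of the set at 25% and the Numb exon the highest at 53.7%. Left out, the Bnip2 exon removes 12 codons, whereas the Adgre5 and Numb exons hold 49 codons each.

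The measure used is the inclusion share, the FPKM of the on form in percent of on plus off. These FPKM are sums of transcript estimates, not counts of reads across the junctions, so exons of one gene share transcripts and the depth behind a share is unknown. In a library 5075 to 6267 events had both forms; 1750 events had them in all 18 libraries, and 3976 had them in 1 library alone. A row is listed only for a form above 0 FPKM, and a missing form was treated as missing. Events with both forms in at least 2 of the 3 libraries of each group, and with a mean of at least 1 FPKM over both forms, were tested. These were 2891 events on 2670 exons of 1950 genes, since 221 exons are listed both as exact events and as approximate ones, whose neighbouring exon ends vary. Of the others, 11472 failed on the libraries and 77 on the FPKM. The exon ends of 2864 tested events and the skipping intron of 2821 are annotated in GENCODE M21.

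Tested exons covered the whole range from nearly always skipped to nearly always kept. The mean share was above 95% for 651 events, at most 5% for 266 and between 20 and 80% for 1107, and its median was 67.4%. Kept and skipped forms were thus both substantial for 38.3% of the tested events. The 5 events with the highest level were of Psap, Gpnmb, Actb and Actg1 (with 2 events). Psap encodes prosaposin, the precursor of lysosomal activator proteins, and its 9-base exon had a mean share of 0.4% in each mock group and 0.7% in each LPS group at a mean of 6123 FPKM. The Gpnmb exon (chr6:49042269-49042364) was kept in at most 0.13% on average in every group. The Actb exon of 240 bases had group means of 99.3 to 99.8%, and those of the Actg1 exons were 97.0 to 99.6% for the 439-base exon and 1.2 to 9.5% for the 45-base exon. None of these 5 events was called in any comparison, and Actb and Actg1, the cytoplasmic actins, share reads with close copies, so their values are uncertain.

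The tested exons were short and more often kept the frame than their neighbours. Of the 1818 tested exons that lie within coding sequence, 57.5% had a length that is a multiple of 3, against 40.5% of the 19680 other internal coding exons of the same genes. For the 639 of them with a mean share of 20 to 80% it was 68.9%, and for the 554 above 95% it was 45.5%. Their median length was 100 bases against 120 bases in the other exons, and 12.7% were at most 50 bases long against 5.17%.

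The spread between libraries of a group was wide and narrowed with the level. With the events ranked by FPKM and cut into 4 bins of equal size, the median SD of the share within a group was 14 percentage points in the lowest bin and 2.2 points in the highest. For events with a mean share of 20 to 80% the bins ran from 19.1 to 12.2 points, so a difference of 10 points is within the usual spread of a single exon in this range.

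**Figure D1:**
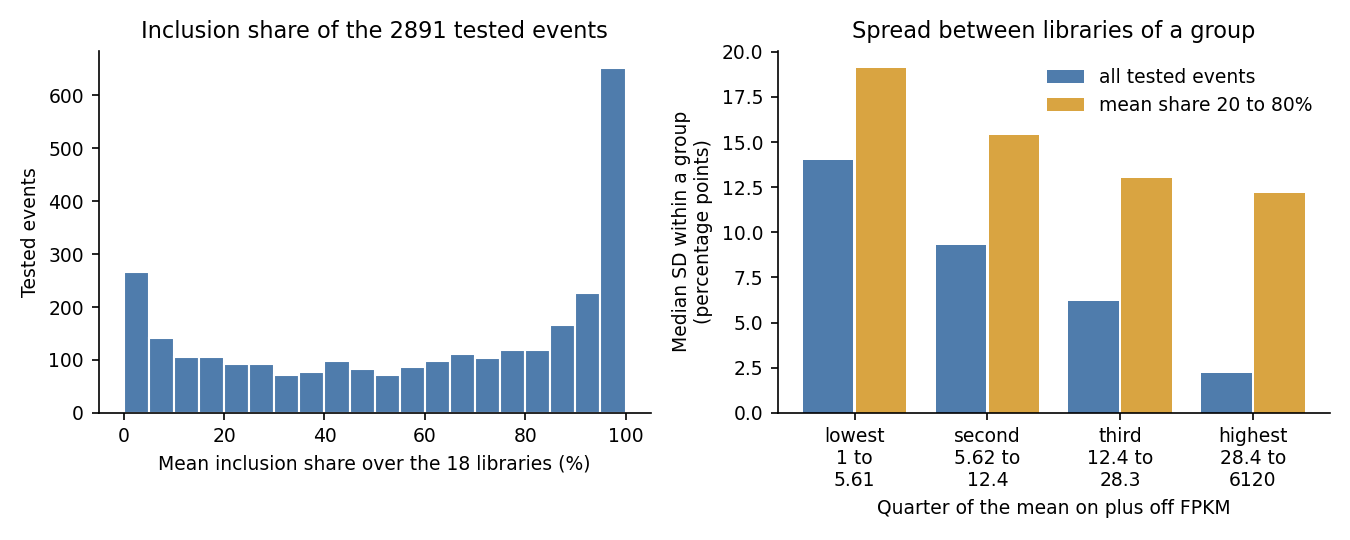
Left, histogram of the mean inclusion share (%) of the 2891 tested events over the 18 libraries, in steps of 5 points. Right, median SD of the share within a group (percentage points) in 4 equal bins of the mean on plus off FPKM, for all tested events and for those with a mean share of 20 to 80%; the SD falls from 14 to 2.2 points and from 19.1 to 12.2 points.

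The first question is which exons changed their inclusion after LPS. Over the mean of the 3 genotypes, the on-to-off ratio rose for 54 events (1.87% of the 2891 tested) and fell for 63 (2.18%), 117 in all (4.05%) in 103 genes, by limma on log2((on + 0.5)/(off + 0.5)) with an adjusted p below 0.01. This scale depends on the level as well as on the share: where one form is at or below the 0.5 FPKM that was added, a gene that is induced at a constant share moves on it. Of the 117 events, 84 had a mean share above 90% in the mock groups (907 of all 2891 tested events), the summed level of both forms moved by 2 times or more in 76.1% (18.7% of all tested events), and the share itself moved by less than 1 point in 58 (765 of all tested events). The share moved by at least 10 points in 28 of the 117 events, up in 22 and down in 6, and in 602 of all 2891 tested events, so this count says nothing particular about the called events. A second limma test on the share alone, on a logit scale with 1 point added, called 18 events (0.623%), 16 of which were also called by the ratio, 7 higher and 9 lower. The 18 include 3 overlapping exons of Kif1c that moved in TLR4-WT alone and are described with the genotypes. In 39 of the 117 events the libraries of the LPS and mock groups did not overlap within any genotype, which held for 1.8% of all tested events.

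**Figure D2:**
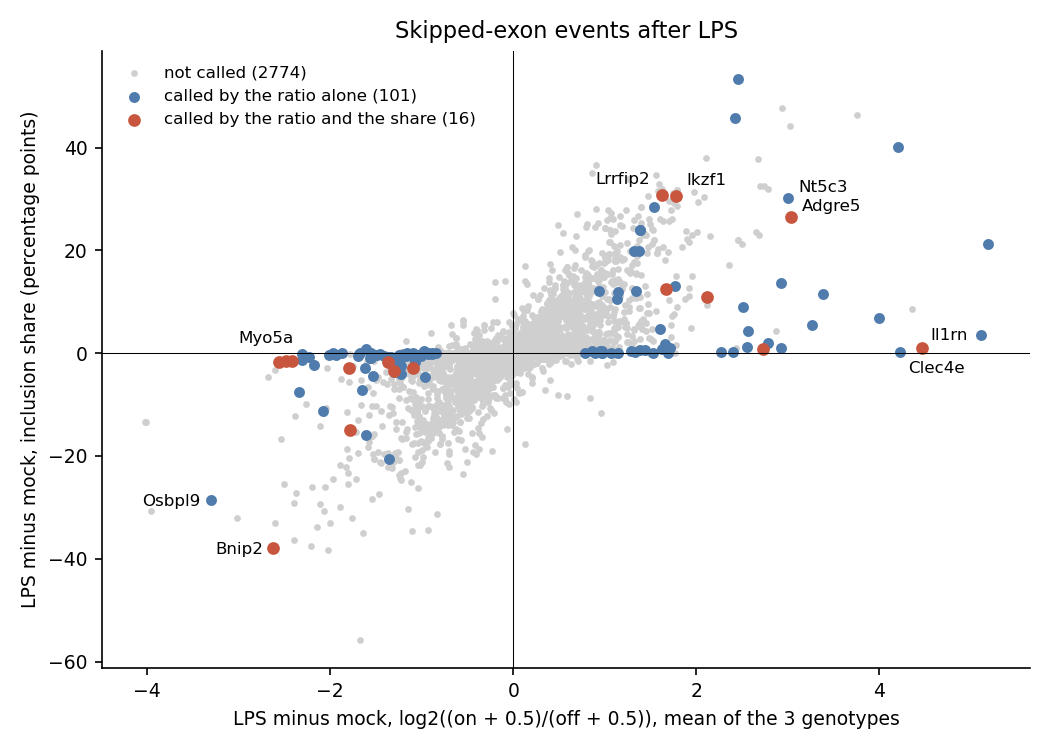
Each point is a tested event, with the LPS minus mock difference of log2((on + 0.5)/(off + 0.5)) on the x axis and of the inclusion share in percentage points on the y axis, both as means of the 3 genotypes. Of the events called by the ratio, those near the horizontal line, such as Il1rn, Clec4e and Myo5a, moved in level at a nearly constant share, and Adgre5, Ikzf1, Lrrfip2 and Bnip2 moved in share.

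Adgre5 (ENSMUSG00000002885), an adhesion receptor of leukocytes also known as CD97 whose isoforms differ in the number of EGF-like domains, kept its 147-base exon almost completely after LPS. The share in the mock libraries was 88.5, 69.2 and 79.7% (WT), 64.3, 82.6 and 63.1% (K730R) and 73.9, 75.2 and 59.7% (K810R). After LPS it was 96.7, 99.5 and 99.7% (WT), 99.9, 99.1 and 99.9% (K730R) and 99.9, 99.2 and 99.9% (K810R). All 9 LPS libraries lay above all 9 mock libraries. The skipped form, at 7.74 to 23.8 FPKM in the mock libraries, was at most 0.683 FPKM after LPS, while the summed level of both forms was 0.27 of that in mock. The log2 ratio rose by 3.04 ± 0.35 (SE, adjusted p = 6.36e-05), and the share test gave an adjusted p of 2.41e-06. The ratio rose in TLR4-K730R (3.75 ± 0.61, adjusted p = 0.0057) and in TLR4-K810R (3.54 ± 0.61, adjusted p = 0.0095), and in TLR4-WT it was 1.81 ± 0.61 higher with an adjusted p of 0.18. Both calls in the mutants were lost in 5 of the 6 fits that left out 1 of their libraries, and that over the genotypes in none of 18. The difference between the responses of TLR4-K730R and TLR4-WT did not pass the test (adjusted p = 0.96).

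Bnip2, which encodes a BCL2-interacting scaffold protein, skipped its 36-base exon more often after LPS over the mean of the genotypes. The mock libraries had shares of 40.9, 20.4 and 18% (WT), 83.3, 52.9 and 45.8% (K730R) and 77.2, 75.9 and 61.7% (K810R). After LPS they were 15.9, 21.6 and 13.5% (WT), 18.5, 9.9 and 10.7% (K730R) and 21.6, 10.4 and 13.4% (K810R). The groups of TLR4-WT overlapped, and those of both mutants did not. Such a lack of overlap held for 22% of all tested events in TLR4-K730R and for 16.9% in TLR4-K810R. The mean log2 ratio fell by 2.62 ± 0.36 (adjusted p = 0.00028, share test 0.0031) at a summed level 1.30 times that in mock. By genotype the ratio differed by -0.74 ± 0.62 in TLR4-WT (adjusted p = 0.64) and by -3.35 ± 0.62 in TLR4-K730R (adjusted p = 0.012), neither past the threshold. It fell by 3.77 ± 0.62 in TLR4-K810R (adjusted p = 0.0069, share test 0.037), a call lost in 6 of 6 fits without a library. The responses of the mutants did not differ from that of TLR4-WT past the threshold (adjusted p = 0.81 and 0.78). Without LPS the mutants were higher than TLR4-WT by 2.20 ± 0.62 in TLR4-K730R and 2.82 ± 0.62 in TLR4-K810R on the log2 scale, and neither difference passed the test (adjusted p = 0.55 and 0.24).

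Osbpl9, a lipid-transfer protein of the oxysterol-binding family, lost inclusion of a 39-base exon. The mock shares were 98.9, 92.8 and 99.3% (WT), 88.5, 98.3 and 99.3% (K730R) and 96.4, 90.2 and 99.2% (K810R). After LPS they were 73.1, 64.2 and 24.3% (WT), 80.8, 51.9 and 83.1% (K730R) and 88.3, 56.7 and 84.1% (K810R). Within each genotype the LPS libraries lay below the mock libraries, with an SD of 17.2 to 26 points after LPS. The log2 ratio fell by 3.31 ± 0.56 (adjusted p = 0.0017); the share test, at an adjusted p of 0.012, missed the threshold.

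Ikzf1 encodes Ikaros, a zinc finger transcription factor of blood cells, and its 261-base coding exon (chr11:11748311-11748571, plus strand) was kept more often. The mock shares were 32.8, 40.5 and 24.6% (WT), 27.8, 30.9 and 28.9% (K730R) and 44.8, 55.1 and 43.6% (K810R). After LPS they were 73.4, 64.2 and 68.4% (WT), 71.3, 66.0 and 74.3% (K730R) and 83.0, 39.2 and 64.9% (K810R). The groups were apart in TLR4-WT and TLR4-K730R, and 1 LPS library of TLR4-K810R lay below the mock libraries. Taken singly, the groups were apart for 20.8% of all tested events in TLR4-WT and for 22% in TLR4-K730R. The log2 ratio rose by 1.77 ± 0.30 (adjusted p = 0.0016, share test 0.0071), and the summed level was 0.92 of that in mock. In no single genotype did the ratio pass the test (adjusted p = 0.063 for WT, 0.027 for K730R and 0.53 for K810R).

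Nt5c3, a pyrimidine nucleotidase, kept a 55-base exon (chr6:56897775-56897829, minus strand; partly coding in 1 annotated transcript) more often, and the gene was induced by LPS at the gene level (log2 change of 2.41, adjusted p = 9.82e-10 in limma on log2(FPKM + 1)). The mock libraries ranged from 31.1 to 80.4% with a median of 64.6%, and the LPS libraries from 75.2 to 99.3% with a median of 94.8%. The groups did not overlap within any genotype. The log2 ratio rose by 3.01 ± 0.47 (adjusted p = 0.00092) at a level 6.85 times that in mock, and the share test missed the threshold (adjusted p = 0.018).

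Exons of Numb and Lrrfip2 were among those of genes listed for well-known skipped exons. Numb, an endocytic adaptor known as a Notch inhibitor, kept its 147-base exon in 16.4 to 31.4% in the mock libraries (median 20.3%) and in 29.1 to 63.0% in the LPS libraries (median 37.4%). The groups did not overlap within any genotype, and the log2 ratio rose by 1.32 ± 0.25 (adjusted p = 0.0036), a call that the share test missed (adjusted p = 0.012) and that was also lost with a pseudocount of 0.1 FPKM, without a pseudocount and with the share in percent. Lrrfip2, a binding partner of MyD88, changed 2 exons in opposite directions. Its 69-base exon went from 25.4 to 61.8% in mock to 71.8 to 94.2% after LPS, in the 8 LPS libraries that list both forms, and the log2 ratio rose by 1.63 ± 0.32 (adjusted p = 0.0056, share test 0.0089). Its 45-base exon went from 29.8 to 54.2% in mock to 11.1 to 36.2% after LPS, a fall of 1.36 ± 0.27 (adjusted p = 0.0058, share test 0.019), with an overlap of the groups in TLR4-K810R. The call was lost in 11 and 12 of the 18 fits that left out 1 library, respectively, with the direction kept. Of the 81 tested events of that gene list, 6 rose and 4 fell (with 1.87% called higher and 2.18% lower over all tested events), and the median share change was 0.93 points against 0.028 points over all tested events. The others that were called were the 151-base exon of Ly6e, listed as both kinds and in a family of close copies, and exons of Il1rn and Fn1, which rose, and of Cd47, Usp4 and Arhgef1, which fell. At Ly6e the shares within one group ran as wide as 38.3 to 96.7% (TLR4-K730R with LPS), and the call of the exact event was lost in 11 of 18 fits without a library.

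The 270-base exon of Fn1 (chr1:71603660-71603929, minus strand) encodes part of fibronectin, a secreted matrix protein. It was kept in at most 5.2% in any mock library, and after LPS in 35.9, 1.1 and 38.6% (WT), 39.5, 9.99 and 30.6% (K730R) and 5.3, 37.0 and 0.2% (K810R). The LPS libraries of a genotype differed widely, and 1 of TLR4-K810R lay within its mock range. The log2 ratio rose by 5.19 ± 1.08 (adjusted p = 0.0071) and the call was lost in 14 of 18 fits without a library. The summed level of 7 of 8 marker genes of mesothelium and fibroblasts, which also make fibronectin, was 31.4 to 277 FPKM in the mock libraries and 43.2 to 143 FPKM after LPS, with Pdgfra at no listed value; its part in the result was not tested.

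Events that moved on the ratio scale at a nearly constant share were led by induced and repressed genes. The 113-base exon of Il1rn, the interleukin-1 receptor antagonist, had 97.9 to 99.4% in the mock libraries and at least 99.7% after LPS, while its summed level was 24.95 times that in mock. The on-to-off ratio rose by 4.47 ± 0.29 (adjusted p = 3.03e-07). Clec4e, the receptor Mincle, rose by 4.23 ± 0.18 at 99.48% or more in every library, and its off form was 0.111 to 0.218 FPKM throughout. Nfkb2, Dhx58, Irf1 and the approximate event of Ly6e rose likewise, at share changes of 0.9 to 3.6 points. Among the falls of the same kind were exons of Dnmt3a, Cdk18, Lipa, Apobec1 and Lair1 (with 2 exons), whose level after LPS was 0.16 to 0.30 of that in mock, and the 45-base exon of Cd47, whose level was 3.41 times higher. Of these, the share test called Il1rn, Dhx58, Dnmt3a and Cdk18, at share changes of 0.9 to 2.9 points in size.

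**Figure D3:**
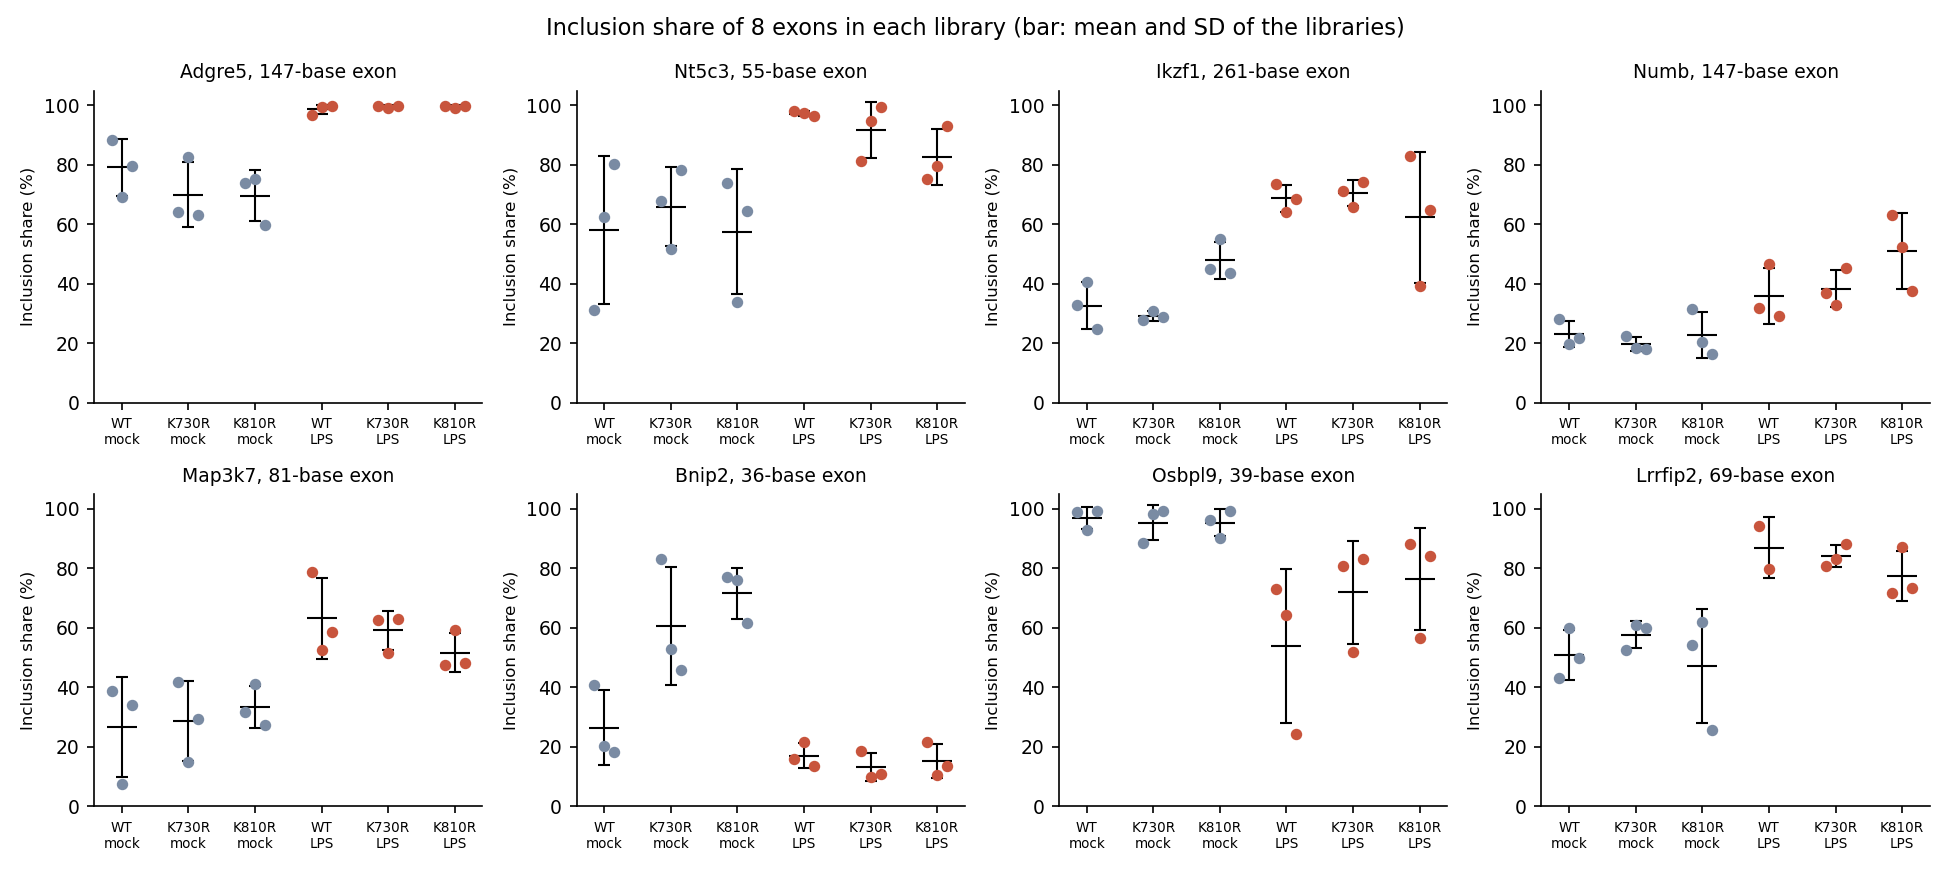
Inclusion share (%) of 8 exons in each library, by genotype and treatment; points are libraries (mock in grey, LPS in red) and bars give the mean and SD of the 3 libraries of a group (2 for Lrrfip2 in TLR4-WT with LPS). All plotted LPS libraries lie at 96.7% or more for Adgre5 and at 71.8% or more for Lrrfip2, and the mock groups of Bnip2 in the mutants lie above that of TLR4-WT.

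The LPS libraries also differed in markers of other cells. The summed level of 9 of 10 macrophage markers was 13771 to 17061 FPKM in the mock libraries and 8175 to 11115 FPKM after LPS, and that of 6 of 7 neutrophil markers was 61.1 to 83.3 FPKM and 204 to 281 FPKM. That of 5 of 7 B cell markers was 6.75 to 24.0 FPKM in the mock libraries and 4.01 to 7.36 FPKM after LPS, lower without overlap within each genotype. Itgam, a defining macrophage marker, Elane, a neutrophil one, and Ighm and Pax5, of B cells, had no listed value. Their part in the exon changes was not tested, and in bulk RNA a change of the cells and a change within cells cannot be told apart.

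Among the other events called by the ratio with a share change of at least 10 points, several low shares rose. Rnps1, an RNA-binding protein of the exon junction complex, kept a 181-base exon in 27.4 to 40.1% in the mock libraries and in 34.4 to 77.2% after LPS (log2 ratio 1.39 ± 0.26, adjusted p = 0.0042, share test 0.012). Ptgr2, a prostaglandin reductase, kept a 129-base exon that is annotated only in non-coding transcripts in 1.1 to 6.4% in the mock libraries and in 8.1 to 21.1% after LPS (2.12 ± 0.26, adjusted p = 0.00034, share test 0.005), at a level 0.26 of that in mock. Rnf157, a ubiquitin ligase, went from 4.0 to 15.1% in mock to 9.97 to 27.0% after LPS (1.67 ± 0.18, adjusted p = 4.03e-05, share test 0.0084), at a level that was likewise 0.26. The libraries of Ptgr2 did not overlap within any genotype, and those of Rnf157 overlapped in TLR4-K730R. Calls that were lost in 10 or more of the 18 fits without a library included Knop1, Nlrc5, Arhgap17, Casp4, Slc31a2, Isca2 and Hnrnpll, which rose by 10.5 to 53.4 points, and Kdm5c and Plekha2, which fell by 15.9 and 11.3 points. Of the 17 coding exons that were called with a share change of at least 10 points, 14 (82.4%) had a length that is a multiple of 3, against 57.5% of all tested coding exons and 68.9% of those with a mean share of 20 to 80%. Of all 83 coding exons called after LPS it was 41 (49.4%).

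Genes of TLR4 signalling were the next question, since the study concerns that receptor. Of 47 listed genes, 35 had an exon with both forms, and 25 events of 17 genes were tested. After LPS the ratio rose for 3 and fell for 1 (4 of 25, with 4.05% called over all tested events). On the ratio, 14 had an unadjusted p below 0.05 in limma, against 684 of the 2891 events over all. The share test called 0 of the 25, with 0.623% called over all tested events. Since the ratio also moves with the level, the 14 events need not have changed in share. The median share change was 1.26 points, against 0.028 points over all tested events. The 81-base exon of Map3k7, the kinase TAK1, had shares of 38.6, 7.5 and 34.2% in the mock libraries of TLR4-WT, 41.8, 14.8 and 29.2% (K730R) and 31.6, 41.2 and 27.4% (K810R). After LPS they were 78.6, 52.5 and 58.5%, 62.7, 51.4 and 63.1%, and 47.4, 59.2 and 48.3%, in the same order. All 9 LPS libraries lay above all 9 mock libraries, and the log2 ratio rose by 1.53 ± 0.33 (adjusted p = 0.0087, share test 0.038), a call that 16 of the 18 fits without a library lost.

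Nfkb1, the precursor of the NF-κB subunit p50, kept a 178-base exon with group means of 88.3 to 92.0% in mock and of 99.4 to 99.9% after LPS (2.51 ± 0.54, adjusted p = 0.0085, share test 0.20, lost in 15 of 18 fits). The 70-base exon of Nfkb2, the precursor of p52, rose by 2.92 ± 0.23 (adjusted p = 1.48e-05, share test 0.012) at a share change of 1.0 point. The 172-base exon of Tnip1, an inhibitor of NF-κB that binds A20, fell by 2.34 ± 0.37 (adjusted p = 0.001) from group means of 6.5 to 11.2% to 1.4 to 2.2%, at a level 6.65 times that in mock. The share test missed it (adjusted p = 0.047), and the call was lost in 4 of 14 alternative settings, that test included. Tlr4 itself had 1 tested event, a 167-base coding exon (chr4:66833894-66834060, plus strand). Its mean share was 66.7 ± 6.6% (WT; SD, n = 3), 56.7 ± 9.6% (K730R) and 66.9 ± 11.7% (K810R) in mock, and 71.0 (n = 2), 76.8 and 68.8% after LPS, with a log2 difference of 0.53 after LPS that did not pass the test (adjusted p = 0.54). The mutated codons are not part of this measure. Myd88 and Irak1 had no single skipped-exon row in any library and Irf3 had 4 events with both forms, in at most 9 libraries, so their exon choice is not analysed here.

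**Figure D4:**
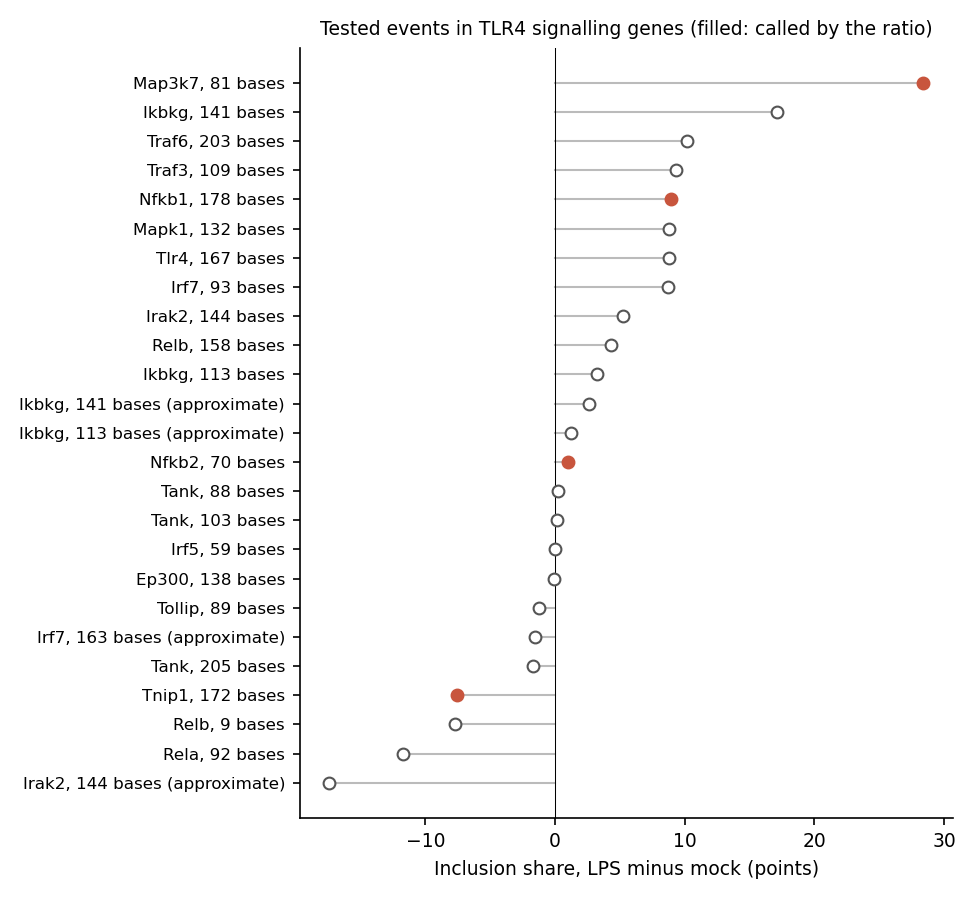
LPS minus mock inclusion share (percentage points, mean of the 3 genotypes) of the 25 tested events in TLR4 signalling genes, named by gene and exon length; filled points were called by the ratio. Map3k7 has the largest rise at 28.4 points, and 21 open points did not pass the test.

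Exons of the splicing regulators themselves were looked at next. Of 31 tested events in SR proteins and SR-like regulators, none was called after LPS by the ratio or the share test in limma (4.05% and 0.623% called over all tested events), and 4 had an unadjusted p below 0.05 on the ratio, against 684 of 2891 over all. At that background, so few events do not set the regulators apart. The 31 events include the long exons of Srsf3, Srsf6, Srsf7 and Tra2b that are annotated in non-coding or decay transcripts, known as poison exons. The 456-base exon of Srsf3 had group means of 9.4 to 15.4%, the 268-base exon of Srsf6 26.3 to 44.7%, the 460-base exon of Srsf7 0.0028 to 7.6% and the 276-base exon of Tra2b 3.6 to 18.7%. For Srsf2, Srsf9 and Srsf11 the group means of no event differed by a called amount, and the 79-base exon of Srsf9 had the widest range of group means, 0.2 to 23.2%. Of 53 events in hnRNP and other regulators, 1 was called by the ratio, against the same 4.05% over all, an 83-base exon of Hnrnpll (chr17:80044940-80045022, minus strand) annotated in a non-coding or decay transcript. Hnrnpll represses the variable exons of Ptprc (CD45). Its exon was kept in 12.8, 16.1 and 3.0% in mock TLR4-WT and in 25.3, 23.5 and 25.3% after LPS, and the log2 ratio over the genotypes rose by 1.15 ± 0.23 (adjusted p = 0.0055, share test 0.046, lost in 11 of 18 fits). The 147-base exon of Ptprc had group means of 3.2 to 4.4% in all 6 groups, and the 72-base exon 97.0 to 100.0%; the log2 differences of -0.09 and 0.49 after LPS did not pass the test (adjusted p = 0.86 and 0.51). Pkm had no single skipped-exon row and Tra2a no tested event.

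At the gene level, from the first- and last-exon FPKM, 66 of the 75 listed regulators were tested with limma on log2(FPKM + 1). After LPS 3 rose and 16 fell, beside 13.9% of all 9707 genes that rose and 40.9% that fell, and the median change of all genes was -0.30. After scaling by the median of ratios, which moved that median to -0.03, 15 rose and 7 fell (22.8% and 23.8% of all genes), so the direction of the regulators as a group depends on the scaling. Mbnl1 and Celf2, RNA-binding proteins of the muscleblind and CELF families, fell by 2.84 and 1.46 on the log2 scale and by 2.52 and 1.16 after scaling. Hnrnpll fell by 1.02 (0.70 after scaling), and Hnrnph3 and Srsf7 rose by 0.97 and 0.59 (1.24 and 0.92 after scaling).

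The next comparison is LPS against mock within each genotype. In TLR4-WT 28 events were called by the ratio (0.969%), each mutant had 12 (0.415%), and 8 were called in all 3 genotypes. The share test called 5 events in TLR4-WT and 1 in each mutant, so at most 1 of the 8 passed it in every genotype. The 8 were events of Clec4e, Il1rn, Nfkb2, Dhx58, Tfeb, Myo5a, Tor3a and H2-T22, the last 2 named after their values were seen and H2-T22 in a family of close copies. Leaving out 1 library took the TLR4-WT count to between 7 and 20 and that of TLR4-K810R to between 3 and 10. A count in one genotype and not in another does not show a difference between them. Under the naming rule, the 62-base exon of Cd40, the costimulatory receptor, rose in TLR4-WT and TLR4-K730R, with group means of 90.1 to 95% in mock and 98.6 to 100.0% after LPS at a level 12.3 times higher. The share test missed both calls (adjusted p = 0.43 and 0.44), which were also lost with a pseudocount of 0.1 FPKM, without one and with the share in percent. In TLR4-K810R the ratio was 2.56 higher without passing the test (adjusted p = 0.090). Gna12 and both Dnmt3a exons fell in TLR4-WT, and Tfeb, Myo5a and Apobec1 in TLR4-K730R, at share changes of at most 5.3 points. The Dnmt3a exon that starts at 3896578 was also called in TLR4-K730R (adjusted p = 0.0013), and that of Apobec1 also in TLR4-WT (adjusted p = 0.0047). The test of the difference between the responses called 1 event for TLR4-K730R against TLR4-WT and 1 for TLR4-K810R against TLR4-WT (0.0346% each), the same exon of Kif1c. The median SE of the log2 ratio was 0.98 for a difference in response and 0.70 within TLR4-WT, against 0.40 for the mean of the genotypes, so these counts were made at a lower precision.

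Kif1c, a kinesin motor, was skipped at an exon of its 5′ UTR only in the TLR4-WT libraries with LPS. The exon (chr11:70702372-70702551, plus strand, 180 bases) is listed under the microRNA gene Mir6925, which lies within Kif1c, and GENCODE M21 holds it in Kif1c alone. The form without it was at 5.08, 4.59 and 4.80 FPKM in the 3 TLR4-WT libraries with LPS but nowhere above 0.0011 FPKM in the remaining 15. The form with it was at 39.8, 44.1 and 38 FPKM in those 3 libraries and at 31.8 to 60.4 FPKM in the others, where the groups overlapped. The inclusion share was therefore 88.7, 90.6 and 88.8% (WT) with LPS and above 99.9% elsewhere. The log2 ratio was higher in TLR4-K730R with LPS by 3.12 ± 0.29 (adjusted p = 6.27e-05) and in TLR4-K810R with LPS by 3.51 ± 0.29 (adjusted p = 1.35e-05) than in TLR4-WT with LPS. The response to LPS differed from that of TLR4-WT by 3.43 ± 0.40 in TLR4-K730R (adjusted p = 0.0015) and by 3.76 ± 0.40 in TLR4-K810R (adjusted p = 0.00049), and each call held when any 1 library was left out. In the 15 libraries with almost no off form, the 0.5 FPKM added takes its place in the ratio. It therefore sets the size of these differences, and the spread of those libraries comes from the on form alone. The SE of 0.40 lay below the median of 0.98 for a difference in response. With a pseudocount of 1 FPKM the difference in TLR4-K730R was 2.56 and missed the threshold (adjusted p = 0.011). A pair of shorter exons with the same end (120 and 106 bases, from 70702432 and 70702446) share the off row and add no independent evidence. Their shares were 4.9 to 8.2% and 1.9 to 5.3% in TLR4-WT with LPS and at least 99.47% elsewhere.

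Each mutant against TLR4-WT was compared with and without LPS. With LPS, 2 events were called for each mutant (0.0692%), all of them these Kif1c exons, and the share test called 4 events for each mutant (0.138%), the 3 Kif1c exons and an exon of Atg13. The test of the difference in response on the share called 4 (0.138%) and 3 (0.104%). Atg13, a subunit of the kinase complex that starts autophagy, kept its 78-base coding exon (chr2:91679920-91679997, minus strand) in 85.2, 76.7 and 81.8% (WT) with LPS. The mock libraries of TLR4-WT had 99.4% each, and those of TLR4-K730R 85.7, 95.3 and 94.7%. The other libraries with both forms, including all LPS libraries of the mutants, lay at 98.3 to 99.4%. The ratio fell in TLR4-WT after LPS by 2.97 ± 0.38 (adjusted p = 0.0014). The differences between the mutants and TLR4-WT with LPS, 1.97 ± 0.38 and 2.21 ± 0.42, did not pass the test on the ratio (adjusted p = 0.18 and 0.10) and passed that on the share (0.0014 and 0.0052). The response of TLR4-K730R differed by 3.52 ± 0.53 (adjusted p = 0.030, share test 0.0002).

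Without LPS, 1 event was called for TLR4-K810R against TLR4-WT (0.0346%) and none for TLR4-K730R (0.0%), where limma gave 151 events with an unadjusted p below 0.05 and the share test also called none. The called event is a 166-base exon of Hnrnpr (chr4:136314090-136314255, plus strand), which encodes hnRNP R, an RNA-binding protein; GENCODE M21 holds it partly in the coding sequence of 2 transcripts. It was kept in 75.5, 87.7 and 95.4% in mock TLR4-WT, 19.9, 16.8 and 48.2% (K730R) and 15.8, 13.3 and 16.2% (K810R). With LPS the shares were 55.8, 80.9 and 53.9%, 82.2, 71.2 and 83.8%, and 18.8, 25.5 and 18%, in the same order. All mock libraries of both mutants thus lay below those of TLR4-WT, and with LPS only those of TLR4-K810R did. In mock, 13.7% of all tested events did not overlap with TLR4-WT, in either direction, for each mutant. With LPS it was 14.9% for TLR4-K810R. The log2 ratio was 4.64 ± 0.58 lower in mock TLR4-K810R (adjusted p = 0.0029, share test 0.00997), a call lost in 5 of 6 fits that left out 1 of its libraries, each except TLR4-WT replicate 1, with an adjusted p of up to 0.028 and a change of -5.14 to -4.12. In mock TLR4-K730R it had the smallest p of that comparison and was not called (-3.71 ± 0.58, adjusted p = 0.039). With LPS it differed by -2.34 ± 0.58 in TLR4-K810R (adjusted p = 0.26), and the response of TLR4-K730R differed from that of TLR4-WT by 4.47 ± 0.82 (adjusted p = 0.069, share test 0.043). The gene level in mock was 14 ± 3.4 FPKM (WT), 11.3 ± 2.7 FPKM (K730R) and 14.7 ± 5.1 FPKM (K810R; SD, n = 3 each).

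The summed level of 14 of 15 intestinal epithelium markers in mock was 4 to 4.67 FPKM (WT), 19.2 to 61.5 FPKM (K730R) and 32.7 to 100.6 FPKM (K810R), and that of the mesothelium and fibroblast markers 31.4 to 49.1, 59.1 to 68.0 and 116 to 277 FPKM. With LPS the intestinal markers were at 3.04 to 22.7 FPKM (WT), 16.1 to 24.1 FPKM (K730R) and 5.39 to 14 FPKM (K810R), and the mesothelium and fibroblast markers at 43.2 to 143, 47.3 to 47.9 and 103 to 124 FPKM. The sum of 5 of 6 mast cell markers in mock was 4.70 to 5.25 FPKM (WT), 0.494 to 2.58 FPKM (K730R) and 0.797 to 2.64 FPKM (K810R), so TLR4-WT was apart from both mutants, and with LPS the ranges overlapped at 1.47 to 4.61, 0.504 to 2.51 and 0.672 to 2.09 FPKM. The part of these cells in the Hnrnpr shares was not tested.

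**Figure D5:**
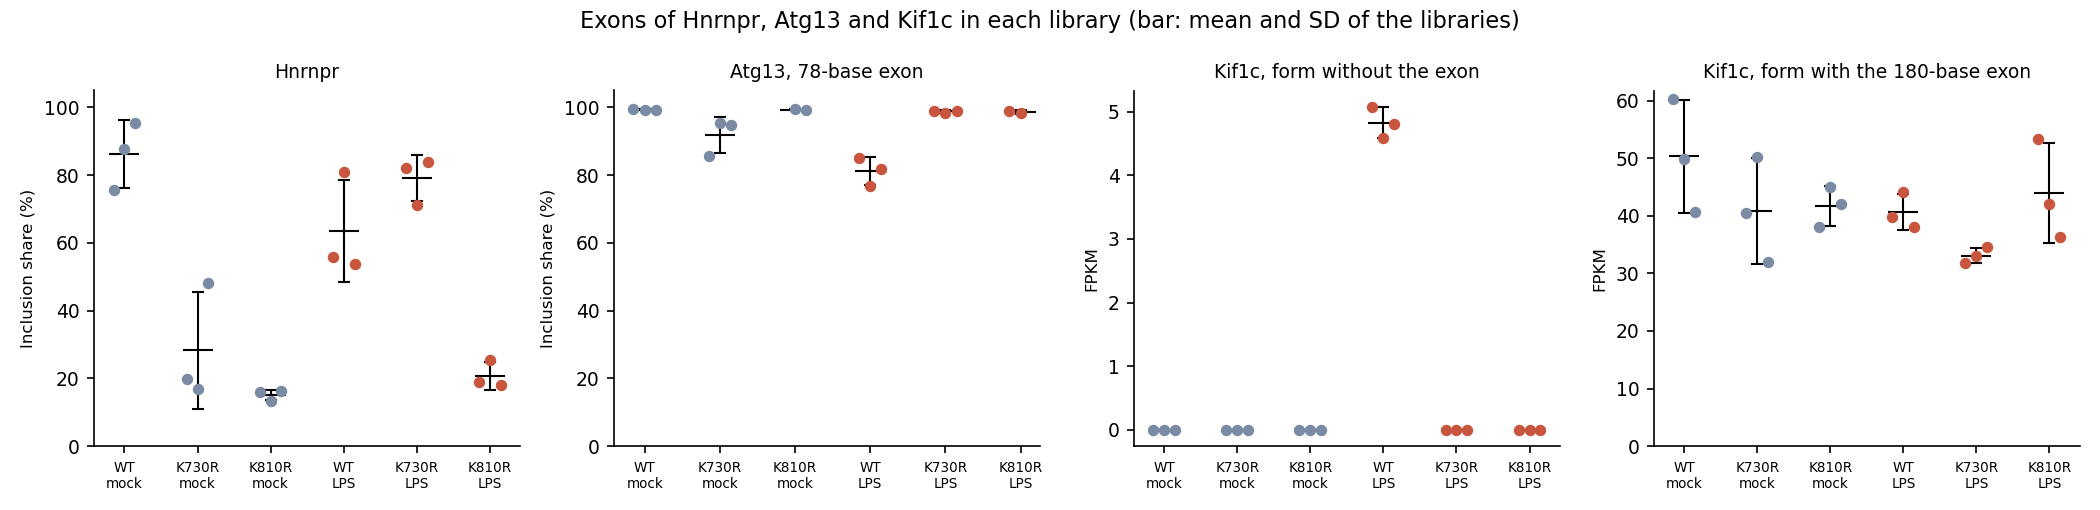
The first 2 panels give the inclusion share (%) of the Hnrnpr and Atg13 exons and the other 2 the FPKM of the Kif1c forms without and with the exon, in each library (mock in grey, LPS in red; bars are the mean and SD of a group). The Kif1c form without the exon is at 4.59 to 5.08 FPKM in the 3 TLR4-WT libraries with LPS and near 0 in all others.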

How the data were processed

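RNA-seq of 18 libraries, 3 in each of 6 groups, was analysed, with groups and replicate numbers from the sample titles. The authors deposited FPKM values for transcript events of 20 kinds, summed from transcript estimates and normalized for length and library size; the program is not given in the sources used here. The submitters' processing notes name the human build hg18, whereas the coordinates match mouse GRCm38. Depth and counting error are therefore unknown. RNA was isolated with a column kit and sequenced on an Illumina platform by a service provider.

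Rows of an event with different neighbouring exon ends were summed, repeated patterns (10482) were counted once, and 2034 rows without a gene number were left out. Of the tested events 92.9% lay within the gene they name. limma 3.58.1 in R 4.3.3 fitted log2((on + 0.5)/(off + 0.5)) with 6 group means over all 18 libraries; a library without both forms is missing from the fit of that event. P-values were adjusted by Benjamini-Hochberg over the 2891 events of each comparison, with the study's threshold of 0.01. The fit was checked on simulated data. Tables were made with Python 3.11.15 and pandas 2.3.3.

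The members, gene lists and tests were chosen with earlier results of these data known. Named events are, for each comparison, the 4 largest rises and falls (8 for the mean of the genotypes) among called events whose groups do not overlap, the smallest p where none was called, called events of listed genes with those of Myd88, Irak1, Irf3, Tlr4, Ptprc, Pkm, Srsf and Tra2 genes, and the 5 events with the highest level. The share test and 3 other alternatives, and the events named for a share change of 10 points, were chosen after seeing the data. Alternatives covered the pseudocount, the response scale, filters, missing forms, variance trend, library weights, replicate block, event kind, threshold and left-out libraries. 1 event is not reported here.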

Additional observations from a re-analysis of the deposited data

Results flagged for a closer look

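The LPS response of the 180-base Kif1c exon differed between genotypes by the interaction test in limma. The log2 on-to-off response of TLR4-K730R was 3.43 higher than that of TLR4-WT (adjusted p = 0.0015), and that of TLR4-K810R was 3.76 higher (adjusted p = 0.00049). The on-to-off ratio fell by 3.70 in TLR4-WT, and it differed by -0.28 in TLR4-K730R and by 0.06 in TLR4-K810R without passing the test. Each call held when any 1 of the 12 libraries behind it was left out, and that of TLR4-K730R was lost with a pseudocount of 1 FPKM (2.56 higher, adjusted p = 0.011). The off form was almost absent outside TLR4-WT with LPS, so the pseudocount sets the size of these differences. Outliers within groups were not looked for, since each group holds 3 libraries.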

How the results depend on the processing

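The counts of called events depend on how the share is scaled. Over the mean of the genotypes, the 117 events became 41 with a pseudocount of 0.1 FPKM, 7 with the share in percent, 18 with the share on a logit scale, 17 without a pseudocount, 53 with events listed in all libraries, 1480 of 11261 with a missing form set to 0, 269 at an adjusted p below 0.05 and 74 with the replicate block; the other alternatives gave 109 to 172. In the same order without the block, TLR4-WT (28 events) gave 6, 7, 5, 6, 10, 377 and 51, TLR4-K730R (12) gave 5, 0, 1, 2, 5, 391 and 54, and TLR4-K810R (12) gave 3, 1, 1, 1, 6, 226 and 36. A pseudocount of 1 FPKM gave 33 and 28 in the mutants, and library weights gave 26 in TLR4-K730R. Why the missing forms matter this much was not tested.

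For TLR4-K730R in mock, where 0 events were called, a threshold of 0.05 gave 1. For TLR4-K810R in mock (1 event) the share in percent gave 3, missing forms set to 0 gave 4 and no pseudocount gave 0. With LPS, TLR4-K730R (2 events) gave 1 with a pseudocount of 1 FPKM and 4 with the logit share or no pseudocount, and TLR4-K810R (2) gave 4 with the share in percent or on the logit scale. For the response of TLR4-K730R (1) the values were 2 with a pseudocount of 0.1 FPKM, 0 with 1 FPKM, 4 with either share, 3 with missing forms set to 0 or no pseudocount and 2 at 0.05. For that of TLR4-K810R (1) they were 3 with either share, 2 with missing forms set to 0 and 3 without a pseudocount. Events within the named gene alone gave 0 in these 4 comparisons, because the files list the Kif1c exons under Mir6925.

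Leaving out 1 library gave 80 to 103 events over the genotypes, 7 to 20 in TLR4-WT, 9 to 11 in TLR4-K730R and 3 to 10 in TLR4-K810R after LPS. For the mutants it gave 0 to 1 in both mock comparisons, 1 to 2 and 1 to 3 with LPS, and 1 for each response. In TLR4-WT the count was 7 and 17 without LPS replicates 1 and 2 and 11, 14 and 10 without the mock replicates. In TLR4-K810R it was 5 and 3 without LPS replicates 1 and 3 and 5 without mock replicate 2. For K810R in mock, the single call was lost without any library but WT replicate 1.

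Same-numbered libraries did not deviate together (correlations of -0.167 to 0.0843 over 45 pairs, and of -0.0941 to 0.155 between other numbers). The values thus gave no sign that the numbers pair the libraries. With shares this noisy they cannot exclude a weak pairing. With the replicate block, the counts were 74 over the genotypes, 17 in TLR4-WT, 11 and 8 in the mutants, 1 for TLR4-K730R against TLR4-WT with LPS and otherwise as without it. Of 1096 refits of 44 of the named calls, 919 kept the call, 177 lost it and 0 reversed. These 44 do not include every call named above, and several of the less stable ones are outside them. The counts therefore do not measure the stability of all reported calls. The regulator genes called at the gene level were 16 to 22 under all alternatives, against 19.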

Other observations

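Some exons had shares that differed widely between groups without being called. In mock libraries the 123-base coding exon of Golgb1, a large Golgi membrane protein, had group means of 7.2% (WT, n = 2), 40.3% (K730R, n = 2) and 59.3% (K810R, n = 3), and of 13.6, 24.2 and 20.6% with LPS. The 66-base exon of Mprip, a regulator of myosin phosphatase, had 22.9, 43.8 and 60.0% in mock and 47.3, 49.2 and 48.6% with LPS. The 158-base exon of Btbd10 had 40.6, 69.6 and 57.5% in mock and 55.9, 54.4 and 5.9% with LPS. These 3 events were chosen after their values were seen, as events of small p in the mutant comparisons, and none passed the test on the ratio.

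Gusb, a lysosomal enzyme often used as a reference gene, showed a small shift that was narrow between libraries. Its 182-base coding exon (chr5:130000361-130000542, minus strand) was kept in 96.7 to 98.4% in the mock libraries and in 91.3 to 97.2% after LPS, with group means of 92.2, 95.6 and 95.9% after LPS. The log2 ratio fell by 1.09 ± 0.17 (adjusted p = 0.00073, share test 0.004) at a level 0.41 of that in mock. The off form was at 3.11 to 7.52 FPKM in mock and 2.83 to 6.07 FPKM after LPS, so it was above the 0.5 FPKM added in every library.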
